A study of Mus musculus with 12 samples.

Results

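Among the nuclei of the P21 mouse cortex, a small set carried Chst9 and Foxp2 transcripts together with a GABA-synthesizing enzyme and with little Rgs9 or Slc17a7. These Chst9 and Foxp2 GABA nuclei were chosen by their raw UMIs (unique molecular identifiers, each standing for 1 captured transcript). A nucleus needed at least 2 UMIs of Chst9, at least 2 of Foxp2 and at least 1 of Gad1 and Gad2 together, with at most 1 of Rgs9 and at most 1 of Slc17a7. The rule found 121 nuclei among 71914 nuclei that had at most 12000 UMIs and at most 1% mitochondrial UMIs, and among 13946 nuclei with a UMI of Gad1 or Gad2 and at most 1 of Slc17a7.

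The study profiled cortices of MYT1L S710fsX mice at postnatal day 21 by single-nucleus RNA sequencing, with 6 WT and 6 heterozygous (Het) animals and 3 males and 3 females of each genotype. S710fsX is a frameshift allele of Myt1l, which encodes a zinc finger transcription factor of neurons, and the WT animals lack it. According to the study's methods, pups received AAV with Calling Cards reagents, including a tdTomato reporter, in the ventricles after birth, and their cortices were taken at this age. The methods do not state that every sequenced animal was injected, and no group described as uninjected was analysed here.

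Chst9 encodes a sulfotransferase that modifies sugar chains, and Foxp2 encodes a forkhead transcription factor found in striatal projection neurons, in some amygdalar GABA neurons and in deep-layer corticothalamic neurons. Gad1 and Gad2 make GABA. Rgs9, a regulator of G-protein signalling, is abundant in striatal projection neurons, and Slc17a7 loads glutamate into vesicles of cortical excitatory neurons. Most GABA neurons of the striatum, of the intercalated cell masses of the amygdala and of part of the olfactory bulb descend from the lateral ganglionic eminence (LGE), whereas most cortical interneurons descend from the medial and caudal eminences.

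The values that chose these nuclei were as follows. Chst9, on chromosome 18 at 15451924-15760157 of mm10, had 2 to 19 UMIs per nucleus with a median of 3. Foxp2, on chromosome 6 at 14901349-15441977, had 2 to 37 UMIs with a median of 9. At the edge of the rule, 43 of the 121 nuclei had from 2 to under 3 Chst9 UMIs, and 63 nuclei that met every other criterion stayed outside with 1 to under 2. For Foxp2, 5 nuclei were inside with 2 to under 3 UMIs, 7 outside with 1 to under 2 and 128 outside below that. For Rgs9, 30 nuclei were inside at 1 UMI and 12 outside above it, and for the GABA enzymes 59 were inside with 1 to under 2 UMIs and 227 outside below 1.

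Chst9 transcripts were not limited to GABA nuclei. At least 2 Chst9 UMIs were present in 5.45% of excitatory nuclei (at least 3 Slc17a7 UMIs, median 7657 UMIs per nucleus), in 1.10% of the other GABA nuclei (median 4647) and in 0.111% of oligodendrocyte nuclei (median 2671). Chst9 and Foxp2 at 2 UMIs each occurred together in 0.853% of excitatory nuclei.

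Per animal the rule found 5, 12 and 7 nuclei in the WT males and 8, 9 and 6 in the WT females. It found 13, 10 and 5 in the Het males and 23, 10 and 13 in the Het females, so that 47 were WT and 74 Het. Together they held 516415 UMIs, from 17901 to 114986 per animal, with a median of 3630 per nucleus (range 1807 to 11751) and a median of 1733 genes. Over the summed nuclei, 3 UMIs, the limit that a count of 0 allows, correspond to 5.81 CPM (UMIs of a gene scaled to a common library total). This limit covers counting error only.

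The libraries held 23425407 to 59947430 UMIs in WT and 36293890 to 56950643 in Het, and 3801 to 7923 nuclei per animal were kept. No barcode was shared between animals. The highest 5% of doublet scores (Scrublet, per animal) took in 16.5% of the Chst9 and Foxp2 GABA nuclei (20 of 121), against 6.56% of the other GABA nuclei.

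To see whether these nuclei resemble each other in genes outside the rule, all GABA nuclei were clustered without the 6 rule genes. Of the 121, 92 fell into 1 cluster of 292 nuclei, and the remaining 29 were spread over other clusters with at most 7 in any one. With coarser rounding of the components, or another seed, the cluster held 281 nuclei, all of them among the 292, and the number meeting the rule was 92 each time. The 200 nuclei of the shared cluster that did not meet the rule had at least 2 Foxp2 UMIs in 92.0% of cases, whereas 20% had a Chst9 UMI and 51.5% had at least 2 Rgs9 UMIs.

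The 29 nuclei outside the cluster differed from the 92 inside it in depth and in the transcripts of other cell types. Their median was 6476 UMIs against 3089, and 44.8% against 7.61% were among the highest doublet scores. Summed over the marker list, excitatory genes reached 1509 CPM outside and 369 inside, astrocyte genes 335 and 42.4, oligodendrocyte genes 327 and 50.8, and microglial genes 166 and 9.53. These are values of the nuclei that were clustered, given without a test. The shares of nuclei and the tests of single genes, Het against WT, were also run on the 92 nuclei alone. Values from those runs are given beside the results for all 121. The comparison of median UMIs, the comparisons by sex and the comparison of the genotype effect with that in striatal nuclei were not run on the 92 alone.

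**Figure D1:**
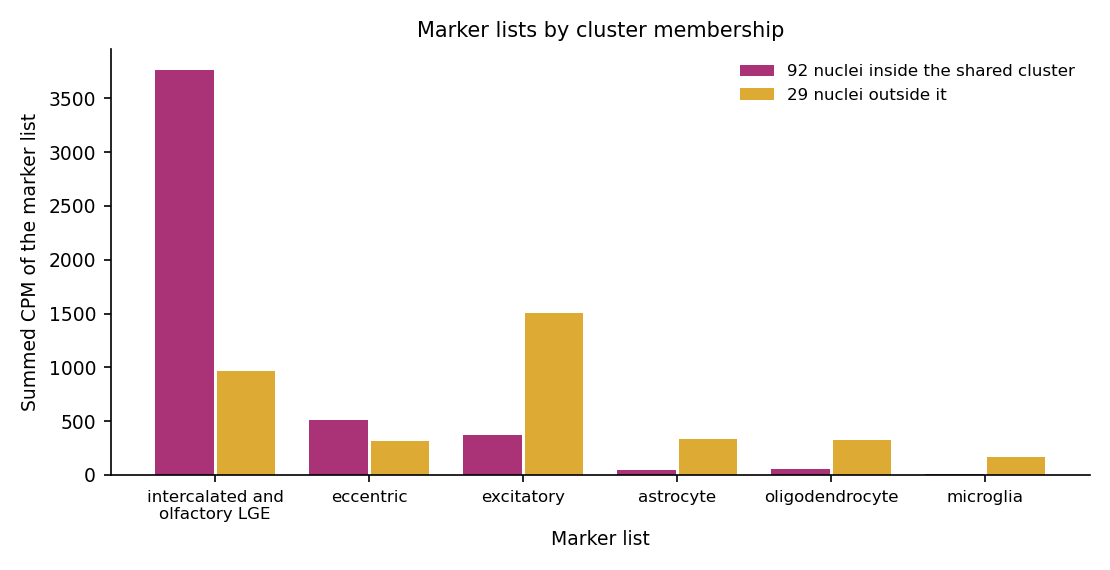
Summed level in CPM of 6 marker lists (y axis) in the 92 Chst9 and Foxp2 GABA nuclei inside the shared cluster (purple) and the 29 outside it (yellow), pooled over 12 animals. The intercalated and olfactory LGE list is higher inside, at 3768 against 970 CPM, and the excitatory and glial lists are higher outside.

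The region in which such neurons lie could be checked only through marker genes. Of 12 striatal projection neuron markers, 10 reached 50 CPM in these or in the Rgs9 striatal nuclei (GABA nuclei with at least 2 Rgs9 UMIs, 1950 nuclei, which are also counted among the other GABA nuclei). None of the 10 was 2-fold higher in the Chst9 and Foxp2 GABA nuclei and 8 were at least 2-fold lower, where 6.81% of 3377 genes were higher and 7.23% lower by that measure. The rule allows at most 1 Rgs9 UMI and the Rgs9 striatal nuclei need 2, so these sets differ in a striatal gene by choice. Against other GABA nuclei, 1 of 8 such markers was at least 2-fold higher and 0 were lower (4.29% and 4.94% of all genes). The summed list stood at 6471 against 6147 CPM there. Folds between populations are ratios of CPM plus 5, and they have no test, since the nuclei were chosen by their transcripts. Ppp1r1b, which encodes DARPP-32, had 1 UMI in all 121 nuclei (1.94 CPM) against 38.3 CPM in the Rgs9 striatal nuclei. Rarb, a retinoic acid receptor of striatal development, stood at 192 against 1222 CPM, and Foxp1, a close relative of Foxp2, at 237 against 1807. The sodium channel subunit gene Scn4b had 0 UMIs against 47.4 CPM. Meis2, a homeobox gene of the LGE lineage, was at 1890 CPM against 1482, and its range over animals, 1123 to 3043, overlapped that of the Rgs9 striatal nuclei, 1077 to 1793.

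Of the dopamine receptors that divide striatal projection neurons, Drd2 had 1 UMI in the 121 nuclei (1.94 CPM, against 215 in the Rgs9 striatal nuclei). Drd1 had 11 UMIs and was less than 2-fold lower, at 21.3 CPM against 38.4 in the Rgs9 striatal nuclei and 8.68 in other GABA nuclei. Neither was detected in 109 nuclei, and none of the 121 had both. Drd1 was low in the Rgs9 striatal nuclei as well, so its absence from a single nucleus carries little information. Of the 18 genes of dopamine and DARPP-32 signalling, 9 reached 50 CPM in either population, and 6 of these were at least 2-fold lower than in the Rgs9 striatal nuclei. They included Pde10a, the striatal phosphodiesterase, at 961 against 3494 CPM and Adcy5, the main striatal adenylyl cyclase, at 105 against 499. Relative to all other GABA nuclei none of the 7 genes of this list that could be compared differed 2-fold in either direction, where 4.29% of 3402 genes were higher and 4.94% lower.

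The 8 markers listed for the pallidum and septum summed to 149.6 CPM, nearly all of it from Kcnc1 and Sox6, which cortical interneurons also express. Kcnc1, a potassium channel gene, was at 89.7 CPM against 149.955 in other GABA nuclei, and Sox6 was at least 2-fold lower. Lhx8, Gbx1 and Nkx2-1, transcription factors of ventral forebrain GABA and cholinergic lineages, had 2, 2 and 1 UMIs, and Zic1, Gbx2 and Tacr3 had none. Of 14 cortical interneuron markers, 3 reached 50 CPM in these or in other GABA nuclei, and 2 of the 3 were at least 2-fold lower and none higher than there (4.94% and 4.29% of all genes). Maf, a transcription factor gene of interneurons, was at 13.6 against 144 CPM. Adarb2, common in interneurons of the caudal eminence, was at 1808 CPM, against 3219 in other GABA nuclei and 580 in the Rgs9 striatal nuclei, and it made the summed list higher than in the latter, 1916 against 719 CPM. Sst, Pvalb and Htr3a had 0 UMIs, but they were also low in other GABA nuclei, at 5.90, 5.69 and 5.29 CPM. Vip had 0 UMIs against 42.4 CPM, and Lhx6, which marks interneurons of the medial eminence, had 2 UMIs (3.87 against 31.5 CPM). Drd2, Ppp1r1b and the pallidal and septal markers other than Kcnc1 and Sox6 had at most 2 UMIs each in all these nuclei. The nuclei are named here by the genes of the rule.

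The list for intercalated amygdala and olfactory LGE neurons gave a different picture. Its 3 genes that reached 50 CPM were each at least 2-fold higher than in other GABA nuclei and than in Rgs9 striatal nuclei, where 4.29% of 3402 genes and 6.81% of 3377 were higher. Tshz1, a zinc finger gene of LGE-derived neurons on chromosome 18, ranged from 276 to 673 CPM over the 12 animals, with a median of 390. In the other GABA nuclei it ranged from 39.5 to 152 CPM and in the Rgs9 striatal nuclei from 15.3 to 107, so that neither range met that of the Chst9 and Foxp2 GABA nuclei. Pbx3, a homeobox partner of Meis proteins on chromosome 2 at 34171457-34373142, ranged from 1068 to 3282 CPM, above the highest values of 676 and 625.4 in the other populations. Oprm1, the mu opioid receptor gene, was at 153 CPM against 36.3 and 32.6. It was higher in 10 of 12 animals against either population. The other members of the list stayed under 50 CPM, and Sp8 and Zfp503 had no UMI. Tshz1, Pbx3 and Meis2 were all detected in 88 of the 121 nuclei, of which 75 were in the shared cluster and 13 outside.

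The 5 genes listed for eccentric striatal projection neurons, a small class apart from the D1 and D2 types, included 3 that reached 50 CPM, all at least 2-fold higher than in other GABA nuclei (4.29% of all genes compared), and 2 of them higher than in Rgs9 striatal nuclei (6.81% of all genes). Otof, which encodes otoferlin, was at 221 CPM against 30.7 in other GABA nuclei and 132 in the Rgs9 striatal nuclei. Col11a1 was at 105 against 45.8 and 36.6 CPM, and Cacng5 at 52.3 against 18.1 and 12.6. Both were at 0 in at least 1 animal, and Col11a1 was above the other GABA nuclei in 8 of 12 animals.

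**Figure D2:**
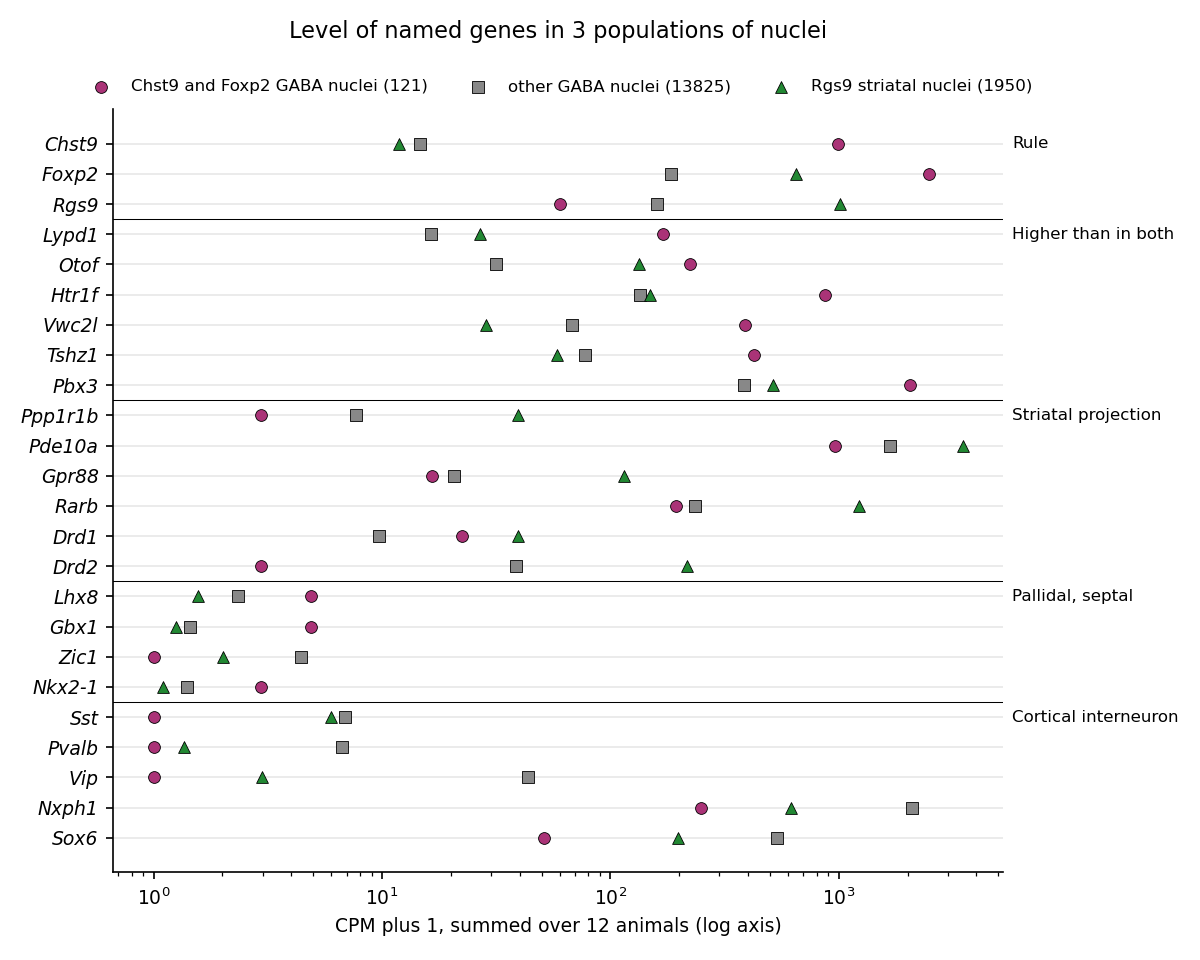
Level of 24 genes (rows, grouped at the right) in CPM plus 1 on a log axis, summed over 12 animals, in the Chst9 and Foxp2 GABA nuclei (circles), other GABA nuclei (squares) and Rgs9 striatal nuclei (triangles). Lypd1, Htr1f, Tshz1 and Pbx3 lie to the right of both other populations, and Drd2 and Ppp1r1b lie near the left edge.

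Relative to all other GABA nuclei, 146 of 3402 genes (4.29%) were at least 2-fold higher and 168 (4.94%) at least 2-fold lower. The genes with the largest ratios, in the same direction in every animal, were Lypd1, Atp2b4, Otof, Htr1f, Dpyd, March3, Kcnh5, Vwc2l, Tshz1, Pbx3, Grm8, Rai14, Inpp4b, Thsd7b and Sdk2. Lypd1 encodes a membrane-anchored modulator of nicotinic receptors and lies on chromosome 1 at 125867622-125913101. It was at 169 CPM against 15.4, or 8.57-fold higher, and ranged from 82.2 to 335 CPM over the animals against 9.49 to 20.7. It was detected in 43.8% of the nuclei and in 3.10% of oligodendrocyte nuclei.

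Several of these genes encode receptors, channels and pumps. Htr1f, the serotonin 1F receptor gene on chromosome 16 at 64924729-65105854, was at 873 CPM against 134 in other GABA nuclei and 148 in the Rgs9 striatal nuclei, with 452 to 1643 CPM over the animals. Htr2c and Cnr1, the serotonin 2C and cannabinoid 1 receptor genes, went the other way, each at 15.5 CPM against 150 and 128 in other GABA nuclei. Grm8, a presynaptic metabotropic glutamate receptor gene, was at 2169 against 433 CPM. Kcnh5, a voltage-gated potassium channel gene, was at 600 against 103 CPM. Atp2b4, a plasma membrane calcium pump gene, was at 369 against 53.7.

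The genes with the lowest ratios to other GABA nuclei were Kctd8, Tmem132c, Grik1, Col19a1, Kcnmb2, Npas3, Gm10754, Sox6, Nxph1 and Maf. Kctd8, an auxiliary subunit of GABA-B receptors, was at 10.7 against 273 CPM (17.7-fold lower), and 3.31% of the nuclei had a UMI against 38.1%. Grik1, a kainate receptor subunit gene of interneurons, was at 74.7 against 1058 CPM, and its level was 14.6 CPM in the 92 nuclei of the shared cluster and 168 in the 29 outside.

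Against Rgs9 striatal nuclei, 230 of 3377 genes (6.81%) were at least 2-fold higher and 244 (7.23%) lower. The highest ratios belonged to Zfp804b, Vwc2l, Nfib, Inpp4b, March3, Erbb4, Cadps2, Rai14, Thsd7b and Sphkap. Zfp804b, a zinc finger gene, was at 1215 against 68.1 CPM. Nfib, a nuclear factor I gene of neuronal differentiation, was at 624.6 against 50.6 CPM, and Erbb4, the neuregulin receptor gene of many GABA neurons, at 10358 against 1196. The lowest ratios belonged to Gm10754, Drd2, Sh3rf2, Ebf1, Kctd8, Dach1, Prkch, Tgfa, Gli3 and Pde1c. Dach1, a transcriptional cofactor gene, was at 35.8 against 682 CPM, and Ebf1, a transcription factor gene of D1 neurons, at 5.81 against 209.

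Counts for the families of excitability and adhesion genes are read against the shares over all genes compared with other GABA nuclei, 4.29% higher and 4.94% lower. They pool all 121 nuclei and were not made for the 92 inside the shared cluster alone. The summed potassium channel list stood at 26724 CPM inside the cluster, 17710 in the nuclei outside it and 18228 in other GABA nuclei. Of 25 potassium channel genes that could be compared with other GABA nuclei, 2 were at least 2-fold higher and 2 lower. Kcnd2, the A-type channel gene, was at 6948 against 2666 CPM, and Kcnc2, the fast-spiking channel gene, at 584 against 1560. Kcnj6, which encodes a G-protein-activated channel, was at 331 CPM against 45.8 in the Rgs9 striatal nuclei. Among 17 sodium and calcium channel genes 3 were higher and 1 lower, and the T-type channel gene Cacna1g stood at 101 CPM against 34.7 in other GABA nuclei and 10.3 in Rgs9 striatal nuclei.

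Of 18 cadherin genes, 5 were 2-fold higher and 2 lower than in other GABA nuclei, where 4.29% of all genes were higher and 4.94% lower. Cdh18 was at 1271 against 545 CPM and Cdh8 at 627 against 294. The summed cadherin list stood at 12060 CPM in the nuclei inside the shared cluster, 15374 in those outside and 11226 in other GABA nuclei. Of 27 synaptic adhesion genes, 2 were higher and 6 lower. Sdk2, a sidekick adhesion gene, was at 321 against 75.0 CPM, and Cntn4, a contactin gene, at 246 against 1339. Of 25 axon guidance genes, 2 were higher and 7 lower. Epha6, an ephrin receptor gene and among the 2 higher, was at 2395 against 1037 CPM.

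Of 15 genes for GABA synthesis, transport and reception, 1 was at least 2-fold higher than in other GABA nuclei and 1 lower. The higher one was Gabra3, which encodes a subunit of the GABA-A receptor (158 against 74.9 CPM). Of 21 glutamate receptor genes, 1 was higher and 2 lower. Both counts lie near the shares over all genes, 4.29% higher and 4.94% lower. Among 10 genes of glycan sulfation other than Chst9 itself that reached 50 CPM, 1 was higher and 2 lower than in other GABA nuclei. Chst1 was at 67.8 against 22.5 CPM and Hs6st3, a heparan sulfate sulfotransferase gene, at 367 against 1534. WT female 3 alone had 2235 CPM of Hs6st3, and without it the level was 225 CPM. The summed sulfation list stood at 1092 CPM in the nuclei inside the shared cluster, 3092 in those outside and 2886 in other GABA nuclei.

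The next comparison asked whether Het and WT cortices held different shares of these nuclei. In WT animals they made up 0.0884% to 0.205% of all nuclei with a median of 0.158%, and in Het animals 0.0867% to 0.300% with a median of 0.178%. The ranges overlapped, and 2 of the 6 Het animals lay above the highest WT value. The means were 0.150% ± 0.0515 in WT and 0.186% ± 0.0732 in Het (SD, n = 6), and an exact two-sided permutation test over all relabellings of the animals gave p = 0.355. Among GABA nuclei the shares were 0.783% ± 0.222 and 0.928% ± 0.372 (exact permutation p = 0.437). Without the 29 nuclei outside the shared cluster the share differed by 0.0151 percentage points (exact permutation p = 0.677). In sex-specific comparisons of 3 against 3, where 0.1 is the smallest p possible, the exact permutation test gave p = 0.8 for males and p = 0.6 for females. The difference between the sexes in the genotype effect had p = 0.535 (exact permutation over 400 exchanges of sex labels).

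The denominators moved as well. Rgs9 striatal nuclei made up 1.24% to 2.84% of nuclei in WT and 2.53% to 3.85% in Het, with means of 1.99% ± 0.646 and 3.40% ± 0.481 (SD, n = 6, exact permutation p = 0.00649). Per 100 Rgs9 striatal nuclei there were 6.09 to 10.6 Chst9 and Foxp2 GABA nuclei in WT (median 7.31) and 3.42 to 9.16 in Het (median 4.82). Of the 6 Het animals, 5 lay below the WT median. The difference of the means was -2.18 and did not pass the test (exact permutation p = 0.0736). With 1 animal left out, it passed only without Het female 1, which had the highest Het value (-2.93, exact permutation p = 0.00433). Without any other single animal it ran from -2.48 to -1.57 (exact permutation p from 0.0584 to 0.141). Counting only nuclei inside the shared cluster gave -2.14 (exact permutation p = 0.0736). After thinning to 2000 UMIs the difference was -2.94 (exact permutation p = 0.416). Without the highest doublet scores it was -2.35 (exact permutation p = 0.132). In males alone it was -3.48 (exact permutation p = 0.1) and in females alone -0.88 (exact permutation p = 0.6). How much of a cortical dissection was basal tissue cannot be told apart from how many such neurons a brain holds.

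**Figure D3:**
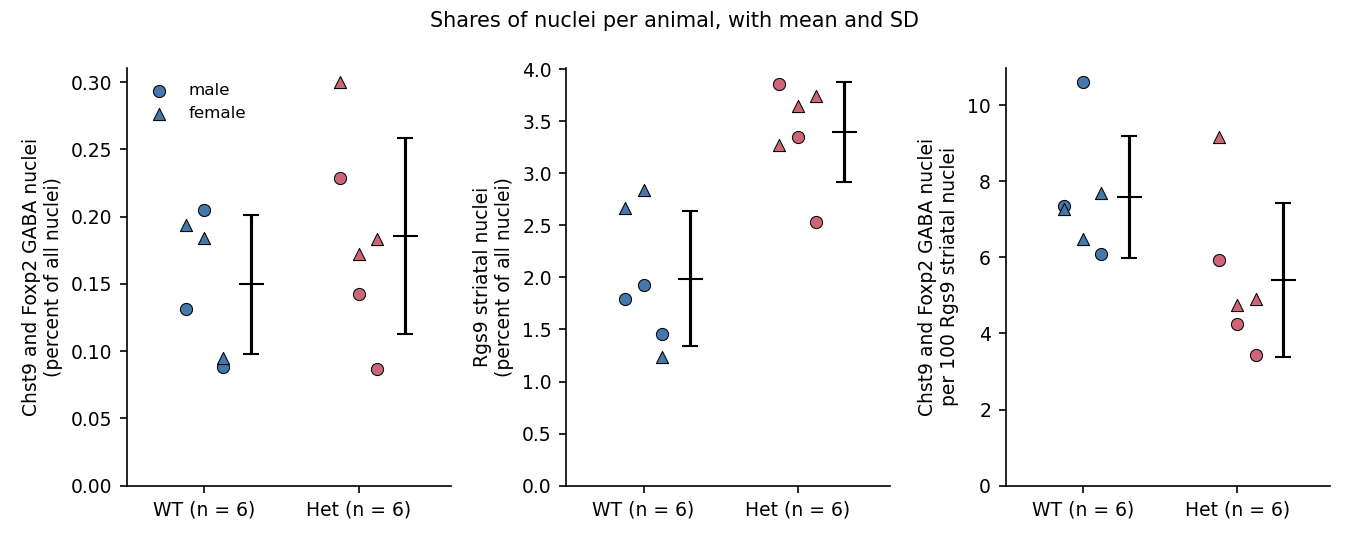
Values per animal (circles, males and triangles, females) with the mean and SD of 6 animals per genotype: the share of Chst9 and Foxp2 GABA nuclei in percent of all nuclei (left), the share of Rgs9 striatal nuclei in percent (middle) and the first per 100 of the second (right). The ranges overlap on the left and right, and in the middle 5 of 6 Het values lie above the highest WT value of 2.84%.

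The share of Chst9 and Foxp2 GABA nuclei was also set against that of Rgs9 striatal nuclei. Pearson's r over 12 animals was 0.59 (permutation p = 0.0427, p = 0.0427 after Benjamini-Hochberg adjustment over 2 relations) and Spearman's rho was 0.54 (permutation p = 0.0738). Without WT female 3 and WT male 3, the animals farthest from the median in Rgs9 striatal share, r was 0.34 (permutation p = 0.339). The relation also missed 0.05 without any one of WT male 1, WT male 3, WT females 1, 2 and 3 or Het male 1 (r from 0.51 to 0.60). Without each animal in turn r ran from 0.51 to 0.67, so its side of 0.05 depended on single animals. After thinning each nucleus to 2000 UMIs r was 0.31 over 12 animals (permutation p = 0.317). Only 0 to 9 nuclei per animal met the rule after thinning, so that value cannot separate depth from counting error. Within WT r was 0.80 (exact permutation p = 0.0667) and within Het 0.51 (exact permutation p = 0.303). The second relation, between the shared cluster and the Rgs9 striatal share, is not read, since 103 of the 292 cluster nuclei are themselves Rgs9 striatal nuclei. Both shares were taken from the same library of an animal.

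The median UMIs per Chst9 and Foxp2 GABA nucleus were 2833 to 5731 in WT animals and 2744 to 4509 in Het animals. The means of these medians were 3721 ± 1046 and 3598 ± 667 (SD, n = 6), with p = 0.833 by the exact permutation test.

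Myt1l, the gene that carries the frameshift, was sampled in nearly all of these nuclei, with a UMI in 96.7%. WT animals ranged from 849 to 1349 CPM with a median of 1111, and Het animals from 828 to 1414 with a median of 1254. The log2 fold change over the summed nuclei of each animal was 0.15 with a standard error of 0.19 (edgeR adjusted p = 0.995). Transcripts of the 2 alleles were not told apart here.

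Genotype effects on single genes were tested on sums per animal. Sums over nuclei do not separate fewer nuclei that express a gene from less RNA per nucleus. The share of nuclei with a UMI of a gene was not compared between genotypes. In animals with at least 10 such nuclei, 1 WT and 5 Het, no gene passed the threshold of an adjusted p under 0.05 with a log2 fold change over 0.2 (edgeR, 0 of 1549 genes, 0% called). Counts at an unadjusted p under 0.05 are not given for this fit, which rests on 1 WT animal. The smallest p-values there were those of Cntnap4, Col25a1, Cdh12, Pcdh15 and Chrm3, with values above 0, and of Pcbp3, Ric8b, Schip1, Synpr and Hs6st2, with values below 0. Because a single WT animal gives no estimate of WT spread, all 12 animals were then fitted, a choice made after the nuclei per animal were seen. Again 0 of 578 genes passed (0% called), with 14 genes (2.42%) at an unadjusted p under 0.05. DESeq2, run without the filter on low counts, called 0 of 15990 genes, with 148 (0.926%) at that level.

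No gene passed, so the genes with the smallest p-values are given as values without a call. On the higher side were Tspan5, a tetraspanin gene (log2 fold change 0.98, SE 0.32), Ano4, an anoctamin gene (0.85, SE 0.29), Sdk2 (0.85, SE 0.30), Trim2, a ubiquitin ligase gene (0.68, SE 0.26), and Frmd5 (0.67, SE 0.27). Over all alternatives Tspan5 ran from -0.11 to 1.13, Ano4 from -0.12 to 1.04 and Sdk2 from 0.17 to 2.04. Trim2 ran from -0.11 to 0.90 and Frmd5 from -0.37 to 0.90. On the lower side were Kctd16, another GABA-B receptor auxiliary subunit gene (-0.72, SE 0.24), Grm5 (-0.43, SE 0.18), Grm8 (-0.62, SE 0.26), Cdh8 (-0.80, SE 0.34) and Htr1f (-0.59, SE 0.25). In the animals with at least 10 nuclei Cdh8 stood at 0.34, where the single WT animal, WT male 2, had the lowest WT level (423 CPM against 767 to 1071 in the other WT animals). Kctd16 was less far from 0 in the same animals (-0.28), within the study's limits (-0.27) and in the wider cluster (-0.10). The adjusted p by edgeR was 0.995 for each. Tspan5 had a median of 292 CPM over the WT animals, with a range of 55.9 to 431, against 563 and 404 to 966 in Het. All 6 Het animals lay above the WT median, and the ranges overlapped slightly. In the wider cluster, Tspan5 had a log2 fold change of -0.11, and Ano4, Trim2 and Frmd5 were likewise below 0 there. Ano4 and Frmd5 were at 202 and 200.2 CPM in the nuclei inside the shared cluster and at 555 and 528 in those outside. The summed excitatory list ranged from 179 to 1843 CPM over the WT animals and from 313 to 3543 over the Het animals. Ano4, Trim2 and Frmd5 did not pass the filter on low counts in the 92 nuclei of the shared cluster that met the rule, and the part of the other nuclei in their values was not tested. In those 92 nuclei, where edgeR called 0 of 381 genes with 12 at an unadjusted p under 0.05, Tspan5 had a log2 fold change of 1.10 and Sdk2 of 0.90. With the looser rule they were 0.41 and 0.47, and in the wider cluster Sdk2 was at 0.17. In the 92 nuclei inside the shared cluster that met the rule, Kctd16 was at -0.30, Grm5 at -0.29 and Cdh8 at -0.52.

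Htr1f and Grm8, which were among the genes that set these nuclei apart, had values below 0 in both fits. Htr1f had a median of 1178 CPM over the WT animals, with a range of 630 to 1643, against 797 and 452 to 888 in Het. All 6 Het animals were under the WT median, and the ranges overlapped. In the cluster the log2 fold changes were -1.002 (SE 0.27, edgeR adjusted p = 0.316) for Htr1f and -0.97 (SE 0.31, edgeR adjusted p = 0.497) for Grm8. In that fit 6 of 8 striatal projection markers lay above 0, and the part of the mix of nuclei in these values was not tested.

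The wider cluster was tested in the same way, but it is another population. The Chst9 and Foxp2 GABA nuclei were 38 of its 106 WT nuclei and 54 of its 186 Het nuclei, and 103 of the 292 were Rgs9 striatal nuclei. Phactr1, a striatal projection marker, was at 8565 CPM in the cluster nuclei outside the rule and at 2706 in those inside it, whereas Htr1f was at 308 and 1146. In the genotype fit 6 of 8 striatal projection markers were above 0 (median 0.40, against 0.01 over all genes), with Phactr1 at 0.53 (SE 0.20, edgeR adjusted p = 0.581) and Foxp1 at 0.67. Within the cluster nuclei that met the rule, the log2 fold changes were nearer to 0 than in the whole cluster, at -0.52 for Cdh8, -0.66 for Htr1f and -0.60 for Grm8, and none was called. No gene of 1421 passed (edgeR, 0% called), and 87 genes (6.12%) had an unadjusted p under 0.05. In the cluster DESeq2, run without the filter on low counts, called 0 of 18484 genes, with 296 of the 18484 at that level. Cdh8, a type II cadherin gene on chromosome 8 at 99024471-99416471, had the smallest p. Its median was 836 CPM over the WT animals (range 518 to 977) against 415 in Het (range 236 to 583), with all 6 Het animals below the WT median. Its log2 fold change was -0.95 (SE 0.20, edgeR adjusted p = 0.122). Without WT female 3 it was -1.03 with an edgeR adjusted p of 0.0471, and without Het female 2 it was -1.06 with 0.047. Over all alternatives for Cdh8 in the cluster the adjusted p ran from 0.047 to 0.997. Het male 3, in which 1 of 5 nuclei lay in the shared cluster, had the lowest Cdh8 level by the rule, 46.0 CPM, and without it the log2 fold change there was -0.64. Epha3, an ephrin receptor gene, followed at -0.84 (SE 0.20, edgeR adjusted p = 0.187). Mef2c, Adgrl3 and Lrfn5 had log2 fold changes of -0.78, -0.49 and -0.97 (edgeR adjusted p = 0.243 for each). On the higher side Nsmce2, Iqsec1, Syndig1, Epc1 and Rbms3 had 0.74, 0.73, 0.98, 0.84 and 0.69 (edgeR adjusted p = 0.497 for each). Chst9 had a log2 fold change of -0.58 (SE 0.33) in the cluster, where 31.5% of nuclei met the rule, and its part in the other differences was not tested.

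**Figure D4:**
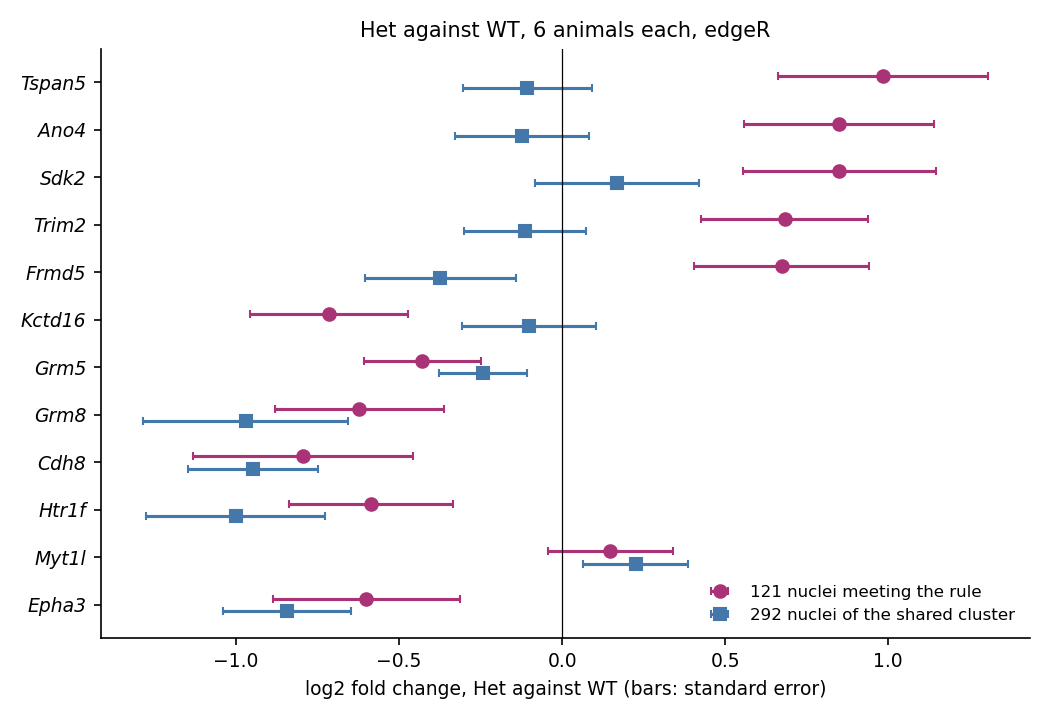
Log2 fold change of Het against WT with its standard error (x axis) for 12 genes, in the Chst9 and Foxp2 GABA nuclei (circles) and in all nuclei of the shared cluster (squares), from edgeR fits over 6 animals per genotype. No gene passed the threshold in either fit; Cdh8, Epha3, Grm8 and Htr1f lie left of 0 in both, and Tspan5, Ano4, Trim2 and Frmd5 lie on opposite sides of 0.

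By list, the genotype differences in the Chst9 and Foxp2 GABA nuclei had medians on both sides of 0, where all genes tested had a median log2 fold change of -0.01 with 279 of 578 above 0. Of 14 glutamate receptor genes tested, 0 were called and 6 were above 0, with a median of -0.03. Of 17 synaptic adhesion genes, 8 were above 0 (median 0.00). Of 13 potassium channel genes 4 were above 0 (median -0.08), and of 10 axon guidance genes 2 were (median -0.25). Of 6 genes of GABA synthesis, transport and reception none was above 0 (median -0.15). Of the 8 cadherin genes 6 were above 0 (median 0.13). Among the 9 tested genes that the study names at this age, a list that is not independent of these samples, 3 were above 0 and the median was -0.07. That list joins genes the study reports as higher in WT with genes it reports as higher in Het, so its median is not read. None of the lists held a called gene.

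Whether the genotype effect differed from that in Rgs9 striatal nuclei was tested with animal as a block. No gene of 4127 passed (edgeR, 0% called, 191 at an unadjusted p under 0.05). The smallest p-values belonged to Dlc1, Carmil1, Bicral, Ano4 and Limch1, whose adjusted p was 0.825. The interaction of sex and genotype likewise gave 0 of 578 genes (edgeR, 0% called, 31 or 5.36% at an unadjusted p under 0.05). For this interaction DESeq2, run without the filter on low counts, called 0 of 15990 genes, with 71 (0.444%) at that level. The smallest edgeR p-values of the interaction were those of Cdh18, Esrrg, Macrod2, Mir100hg and Zfpm2, with an adjusted p of 0.67.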

How the data were processed

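Nuclei of 12 P21 cortices, 6 WT and 6 Het, were analysed. The authors barcoded nuclei by combinatorial indexing (ScaleRna), mapped reads to mm10 and deposited expected counts of UMIs per gene and nucleus without normalization; 92.5% to 92.9% of the entries were exactly whole, and the rule's limits were applied to the unrounded values with a tolerance of 1e-06. The annotation release and the strand setting are not given in the sources used here. The study's methods name DoubletFinder; whether the deposited barcodes precede that step was not settled, and 6808 of 78743 barcodes lay above 12000 UMIs and were left out. The reporter's row, TDTOMATO, entered no library size and no test. Gene positions came from GENCODE M21.

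The 121 members and the gene lists were chosen with earlier results of these data known. GABA nuclei were log-normalized and clustered without the rule genes (scanpy 1.11.5, 3000 variable genes, 50 components, 20 neighbours, leidenalg 0.10.2, resolution 1.5). Counts were summed per animal, rounded and tested with edgeR 4.0.16 (TMM, filterByExpr, robust quasi-likelihood fit, genotype only), with DESeq2 1.42.0 as an alternative. A call needed a Benjamini-Hochberg adjusted p under 0.05 and a log2 fold change over 0.2. The planned fit took animals with at least 10 members. Shares were compared by exact permutation tests. The test was checked on simulated counts. For all 121 nuclei over 12 animals, edgeR recovered 72.7% of 165 tested genes changed 2-fold, with 5 false calls. At 4-fold it recovered 98.8% of 161, with 10 false calls. Smaller changes were not simulated. Named were the rule genes, Myt1l, the 5 smallest p-values per direction and per interaction, the 15 highest and 10 lowest ratios to other GABA nuclei, the 10 and 10 to Rgs9 striatal nuclei (at least 50 CPM, same direction in every animal), and list members. Alternatives were other scalings, filters, rules, depth (thinning to 2000 UMIs), covariates and leaving out each animal. The 12-animal fit, the alternatives on the shared cluster, the repeated clusterings and the levels without 1 animal were chosen after seeing the data. Intervals and p-values reflect the spread between these animals. Results for some genes are not reported here.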

Additional observations from a re-analysis of the deposited data

Results flagged for a closer look

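The number of Chst9 and Foxp2 GABA nuclei per 100 Rgs9 striatal nuclei was 10.6 in WT male 2, apart from the next WT animal at 7.69. Median UMIs per such nucleus were 5731 in WT female 3 (5730.5, with 3 of its 6 nuclei among the highest doublet scores), against 3884 in the next WT animal. Frmd5 was at 591 CPM in Het female 3 and 383 in the next Het animal, and Grm5 was at 3505 CPM in WT female 1 and 3017 in the next WT animal. Each of these stood apart from the other 5 animals of its genotype by a gap over the 95% limit of Dixon's ratio for 6 samples, 0.625; chance alone marks about 1 in 20 groups, and 36 groups were looked at.

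TDTOMATO, the transcript of the injected reporter, was left out of every comparison of the report. It had 79 UMIs in the Chst9 and Foxp2 GABA nuclei and was detected in 35 of them (28.9%), against 45.2% of other GABA nuclei (median 4647 UMIs) and 5.70% of oligodendrocyte nuclei (median 2671 UMIs).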

How the results depend on the processing

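Of 435 alternative values, 403 kept the direction and the side of the threshold, 11 reversed, 10 lost and 3 gained significance and 8 counts changed by over 1.5 times. The causes were not tested, beyond what an alternative's own construction shows (fewer animals or other genes tested). The share of these nuclei was higher in Het by 0.036 percentage points, but per 100 Rgs9 striatal nuclei the difference was -2.18 (exact permutation p = 0.0736) and for the shared cluster per 100 Rgs9 striatal nuclei, which overlap it, -3.14. Without each animal in turn the share differed by 0.0131 to 0.0558 points, and the count per 100 Rgs9 striatal nuclei by -2.93 to -1.57. The difference in median UMIs, -122, was 185 within the study's limits and ran from -304 (-304.5) to 280 without each animal. The correlation of 0.59 was 0.31 after thinning (permutation p = 0.317), 0.34 without the 2 farthest animals, 0.80 within WT, 0.51 within Het and 0.51 to 0.67 without each animal. After thinning to 2000 UMIs, 885 WT and 1948 Het nuclei were left out as shallower.

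In animals with at least 10 nuclei, where 1 WT animal is assumed to vary like the Het animals, calls went from 0 to 1 (Pcdh15, 4 Het) within the study's limits, 2 (Pcdh15 and Synpr, 3 Het) without the highest doublet scores and 0 to 1 (Cdh12, without Het female 2) without each animal. With cluster nuclei, 5 WT and 6 Het animals qualified and 1 gene (Cdh8) was called. In the cluster they were 0 to 1 without each animal. Without a filter on low counts 1 gene (Gm49678) was called for the difference from Rgs9 striatal nuclei and 1 (Zfpm2) for sex by genotype. The log2 fold changes in the cluster were -0.11 for Tspan5, -0.12 for Ano4, -0.11 for Trim2 and -0.37 for Frmd5, and that of Cdh8 was 0.34 in animals with at least 10 nuclei (1 WT). The stricter rule could not be fitted for animals with at least 10 nuclei, since no WT animal had 10.

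With the replicate block (sex and replicate number) 0 genes were called in the 12-animal fits, and the share difference stayed at 0.036 points (exact sign-flip permutation p = 0.25, 6 pairs). The planned fit with 1 WT animal left no degrees of freedom for the block. The numbers did not pair the animals: correlations of same-numbered animals ran from -0.28 to 0.11. The depth limits what can be seen: 3 UMIs in all these nuclei are 5.81 CPM.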
